A study of Homo sapiens with 8 samples.

Results

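The RNA exosome and the factors of mRNA decapping, deadenylation and nonsense-mediated decay (NMD) were followed in U251 cells as a set of 38 genes, chosen by gene symbol for what their proteins do, although earlier results of these data were known when they were chosen. All 38 symbols were found once among the 61906 genes listed, and all 38 passed the filter that left 14478 genes for testing. U251 is an established human glioblastoma cell line, labelled WT, and all cultures were of this line. The vehicle group comprised 4 cultures treated with DMSO and the LLY-283 group 4 cultures treated with 100 nM LLY-283, a small-molecule inhibitor of the arginine methyltransferase PRMT5, and RNA was extracted after 24 h. The labels call the 4 libraries of a group biological replicates but do not say how the cultures were kept apart, so p-values measure the spread between these libraries.

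RNA is degraded from both ends. The RNA exosome is a barrel of 9 catalytically inactive subunits, to which the nucleases DIS3, DIS3L and EXOSC10 attach, and it degrades RNA from the 3' end in the nucleus and cytoplasm; adaptor complexes built on the helicase MTREX deliver nuclear RNA to it. In the cytoplasm most mRNAs first lose their poly(A) tail to the CCR4-NOT complex, then lose their cap to DCP2, and are degraded from the 5' end by XRN1. NMD recognizes mRNAs on which translation stops ahead of an exon junction complex, the mark that splicing leaves on mRNA, and relies on UPF1, UPF2, UPF3A, UPF3B and the SMG proteins. PRMT5, the target of LLY-283, methylates proteins of the splicing machinery.

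The abundance of each gene was deposited as TPM, an RSEM estimate of the reads of a gene divided by transcript length and by the total of the library, so levels of different genes can be compared. TPM holds no read numbers, so depth and counting error cannot be given for any library. Glial and mesenchymal markers ranged widely in the vehicle libraries, from S100B at 4.34 TPM and SLC1A3 at 6.92 TPM to GFAP at 809.5 ± 32.6 TPM and VIM at 4301 ± 34.8 TPM (SD, n = 4), and PTPRC, PECAM1, EPCAM, RBFOX3 and MBP, which mark leukocytes, endothelium, epithelium, neurons and oligodendrocytes, had group means of at most 0.475 TPM. Of 8 glial and mesenchymal markers 1 was called higher with LLY-283 (CD44, 1576 to 1700 TPM) and 2 lower (GFAP, 809.5 to 679.9 TPM, and NES, 483 to 429 TPM), near the shares over all genes of 8.61% and 17.6%, and their part in the results was not tested. LLY-283 replicate 4 stood apart: among well-expressed genes its root-mean-square deviation from the other 3 libraries of its group was 0.163 on the log2 scale, and that of the other 7 libraries lay between 0.0797 and 0.114.

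The RNA decay factors moved in both directions and by small amounts. LLY-283 was compared with vehicle by limma on log2(TPM + 0.1), fitted over all genes tested with Benjamini-Hochberg adjustment, and a gene was called higher or lower at an adjusted p under 0.05. Of the 38 genes, 8 were called higher (21.1%, where 8.61% of all genes tested were) and 6 were called lower (15.8%, where 17.6% of all genes were). Among genes averaging at least 5 TPM, 11.4% were called higher and 19.3% lower, and the calls of the 38 were the same. The 8 were the exosome ring subunits EXOSC7 and EXOSC9, the 5' exonuclease XRN2, the decapping scaffold EDC4, the NMD factors UPF1 and UPF3B, and the exon junction proteins MAGOH and CASC3. The 6 were the exosome subunits EXOSC2, EXOSC3 and EXOSC8, the decapping enzyme DCP2, and the NMD factors UPF2 and UPF3A.

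None of the 38 changed by 1.5-fold, a size that 0.394% of all genes passed as higher calls and 3.48% as lower calls. Log2 fold changes ran from -0.22 for EXOSC3 to 0.35 for EXOSC9, with standard errors between 0.029 and 0.128. Their median was 0.07, against -0.05 over all genes, with 23 above 0 and 15 below. The LLY-283 libraries all lay above the vehicle libraries for 9 of the 38 genes (9.63% of all genes) and all below for 4 (19.6% of all genes). In bulk RNA a lower level in every cell and a smaller share of cells that express a gene cannot be told apart.

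How the calls divided depended on the scaling of the libraries. Quantile normalization gave 11 higher and 4 lower calls, median-of-ratios scaling 12 and 1, and removing the dependence of the values on transcript length and GC content (the GC and length trend) 17 and 0, with 3 of the 38 lower at an unadjusted p under 0.05 in the last (16% of all genes). The shares over all genes shifted too, to 12.9% higher and 12.6% lower, 13.3% and 12.9%, and 19.4% and 11.4%. The median over all genes moved from -0.05 to 0.01, 0.00 and 0.03 under these scalings. All 8 genes called higher were called higher under each of the 3 scalings, and of the 6 called lower 3, 1 and 0 were; none of the 14 changed sign. Without LLY-283 replicate 4 the calls were 12 higher and 5 lower, of which 8 and 4 were among the calls with all libraries, where 10.4% and 18.4% of all genes were called.

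**Figure D1:**
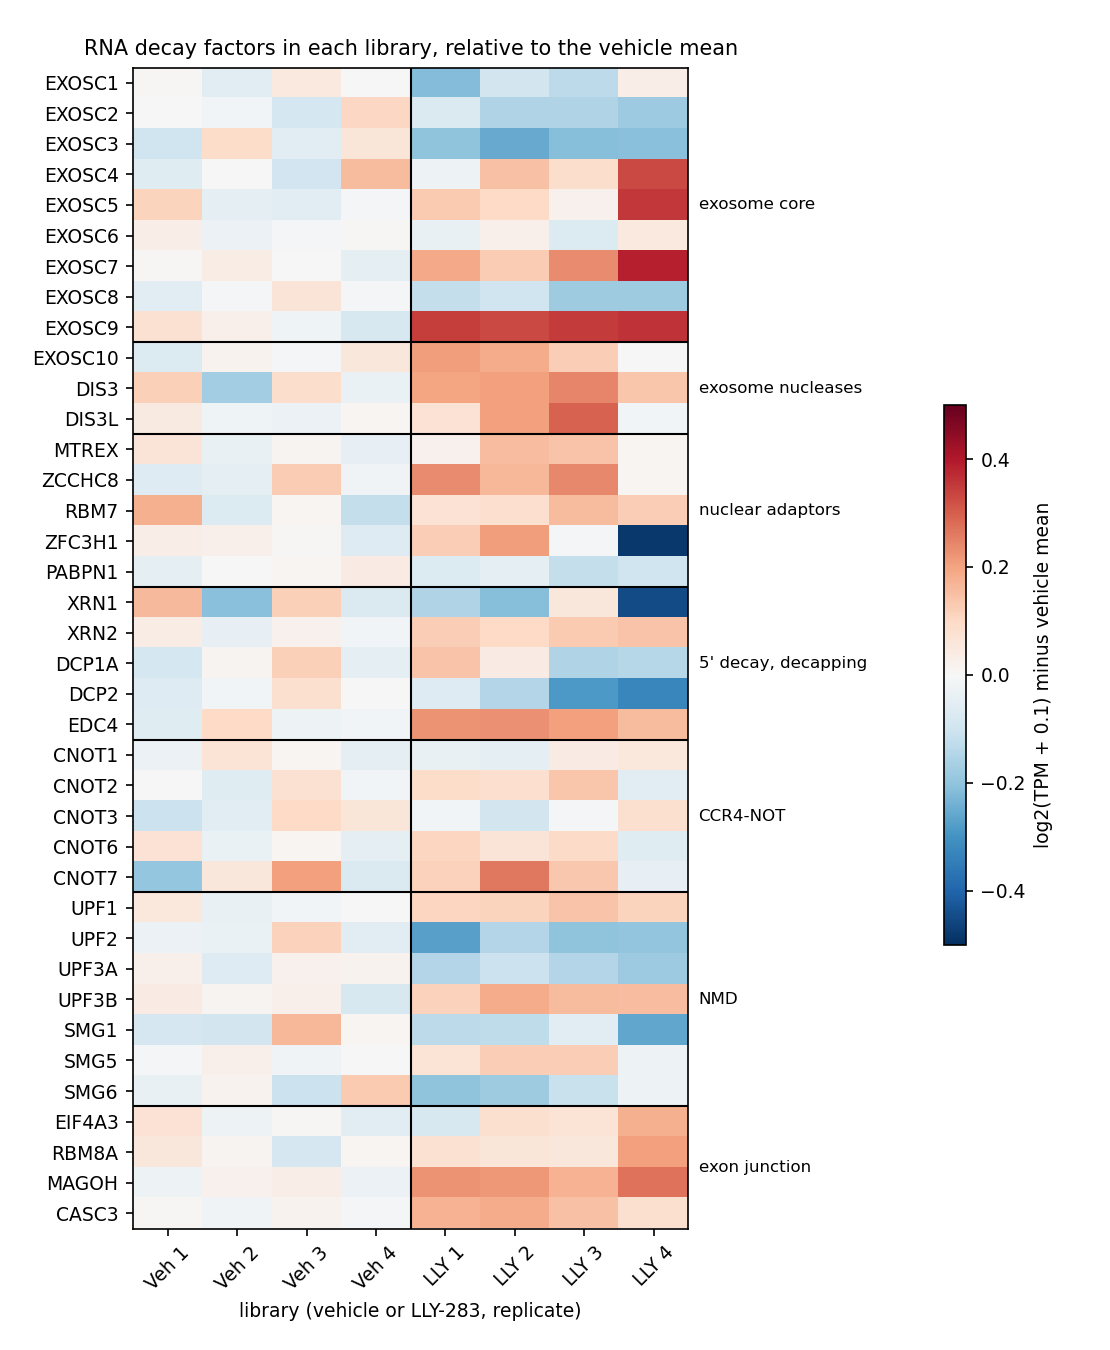
Level of each of the 38 RNA decay factors in each of the 8 libraries, as log2(TPM + 0.1) minus the mean of the 4 vehicle libraries (colour, from -0.5 to 0.5), in groups by role. EXOSC9, EDC4, MAGOH and CASC3 were above the vehicle mean in all 4 LLY-283 libraries, EXOSC3, EXOSC8, UPF2 and UPF3A were below it in all 4, and LLY-283 replicate 4 held the lowest values of ZFC3H1 and XRN1.

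**Figure D2:**
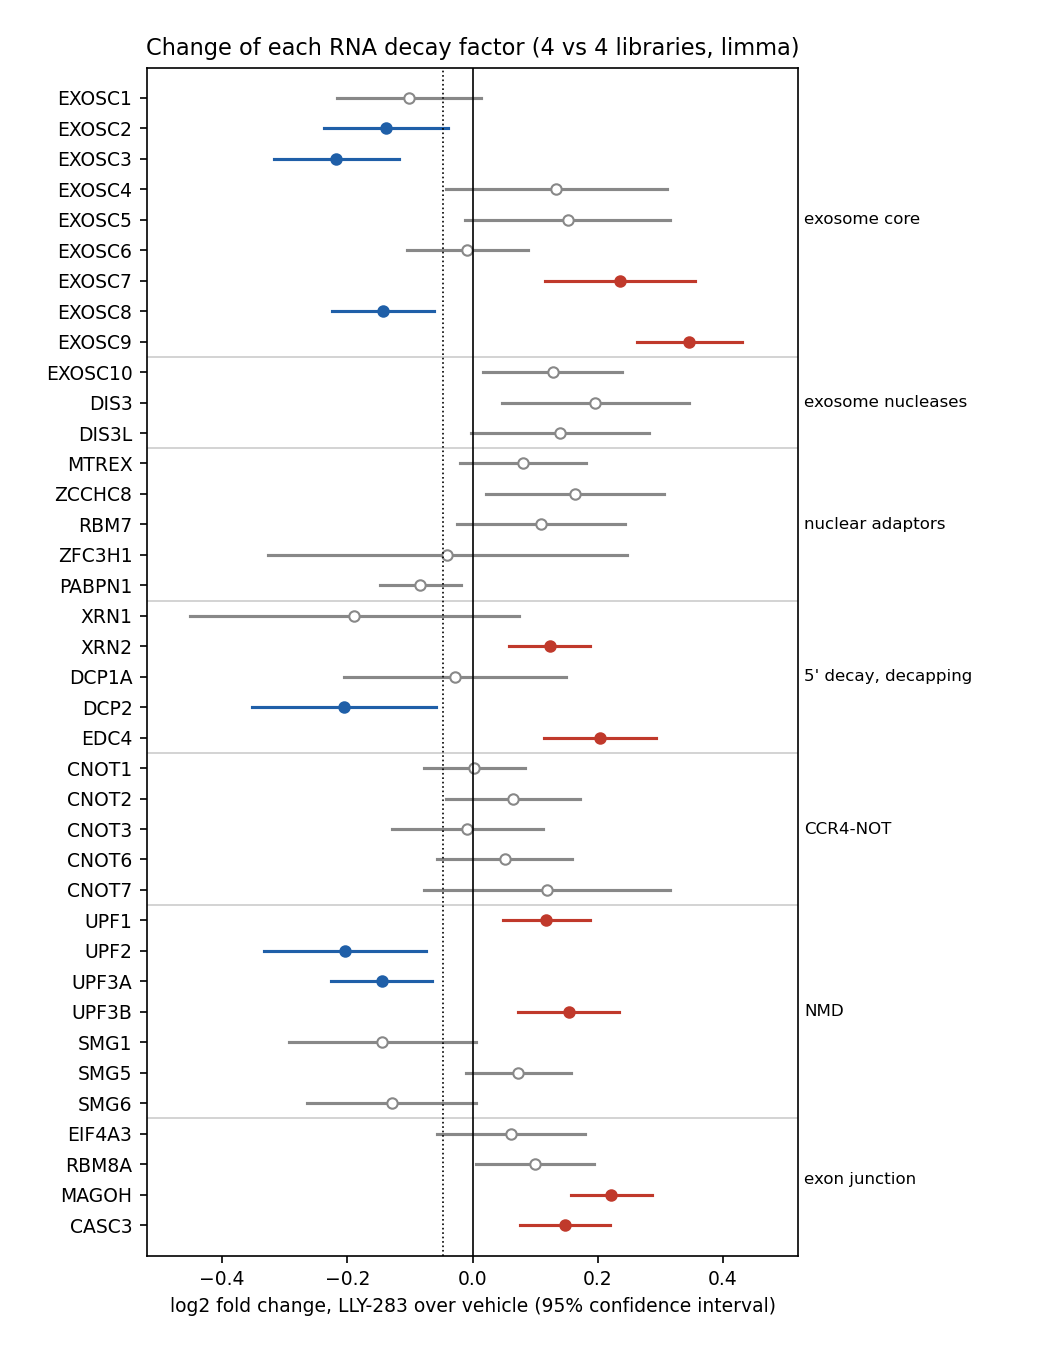
Log2 fold change of each RNA decay factor, LLY-283 over vehicle, with its 95% confidence interval from limma (4 libraries a group). Red points are the 8 genes called higher and blue points the 6 called lower, open points were not called, and the dotted line is the median of all genes tested at -0.05; the lower calls depended on the scaling of the libraries.

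In the exosome barrel, 2 subunits were called higher and 3 lower. The barrel is a ring of EXOSC4 to EXOSC9 under a cap of EXOSC1, EXOSC2 and EXOSC3, which bind RNA at its entrance. In the ring, 2 of 6 subunits were called higher and 1 lower. In the cap, 2 of 3 were called lower, and none higher. Over all genes 8.61% were called higher and 17.6% lower, and whether cap and ring differ was not tested. EXOSC1 (40.7 ± 2.94 TPM against 43.6 ± 1.252 in vehicle, SD, n = 4) was not called at a log2 fold change of -0.10, which turned to 0.02 with the GC and length trend removed and was called lower without LLY-283 replicate 4 (-0.15, limma adjusted p = 0.0269).

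EXOSC9, a ring subunit that pairs with EXOSC4, had the largest change of the 38. It measured 45.6, 44.1, 42.7 and 40.99 TPM in vehicle replicates 1 to 4 and 55.0, 54.45, 55.2 and 55.7 TPM in LLY-283 replicates 1 to 4. Every LLY-283 library was above every vehicle library, and the 4 LLY-283 values lay closer together than the vehicle values. The mean rose by 27.1%, a log2 fold change of 0.35 ± 0.04 (SE, limma adjusted p = 0.000316).

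EXOSC7, another ring subunit, measured 39.9, 40.9, 39.9 and 38.5 TPM with vehicle and 45.4, 43.5, 46.9 and 52.1 TPM with LLY-283. The groups did not overlap, and LLY-283 replicate 4 was the highest. Its log2 fold change was 0.24 ± 0.05 (SE, limma adjusted p = 0.0112). EXOSC9 and EXOSC7 were called higher under all 17 alternative settings of the fit, which leave the 1.5-fold threshold apart, and their log2 fold changes lay between 0.32 and 0.44 and between 0.19 and 0.37.

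EXOSC3, a cap subunit, fell the most in the barrel. Its level was 69.9, 79.9, 72.4 and 78.1 TPM in the vehicle libraries and 65.3, 63.0, 64.7 and 64.8 TPM in the LLY-283 libraries, so that the groups did not overlap and the vehicle libraries varied more. The log2 fold change was -0.22 ± 0.04 (SE, limma adjusted p = 0.00685). The call was kept in 16 of 17 alternative settings and lost with the GC and length trend removed (-0.13, adjusted p = 0.0656).

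EXOSC8, a ring subunit, measured 49.8, 51.3, 53.9 and 51.4 TPM with vehicle and 47.5, 48.2, 45.6 and 45.7 TPM with LLY-283, again with no overlap. It was called lower at -0.14 ± 0.04 (SE, limma adjusted p = 0.0177) and was not called under median-of-ratios scaling (adjusted p = 0.0543) or with the GC and length trend removed (adjusted p = 0.432). The cap subunit EXOSC2 measured 57.6, 57.3, 54.4 and 62.1 TPM with vehicle and 55.0, 52.1, 52.03 and 50.9 TPM with LLY-283. Here the highest LLY-283 library lay above the lowest vehicle library, and the call at -0.14 ± 0.04 (SE, limma adjusted p = 0.0464) was lost without vehicle replicate 1, 2 or 4 and without LLY-283 replicate 2, 3 or 4 (adjusted p from 0.0833 to 0.107). It was also lost under quantile normalization (adjusted p = 0.0675), median-of-ratios scaling (0.171) and with the GC and length trend removed, where the log2 fold change was -0.04 (0.563). A filter of 0.1 TPM (limma adjusted p = 0.0623) and a fit with no mean-variance trend (0.0769) lost the EXOSC2 call too.

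The remaining ring subunits were not called, though EXOSC4 (0.26, limma adjusted p = 0.0378) and EXOSC5 (0.27, 0.0358) were called higher with the GC and length trend removed. EXOSC4 measured 48.2 ± 3.89 TPM in vehicle and 52.98 ± 5.54 TPM in LLY-283 libraries, EXOSC5 16.5 ± 0.90 and 18.3 ± 1.88 TPM, and EXOSC6 15.9 ± 0.30 and 15.8 ± 0.61 TPM (SD, n = 4). For EXOSC4 and EXOSC5 the highest value was that of LLY-283 replicate 4, at 60.4 and 21.0 TPM. The 95% interval of the log2 fold change was -0.11 to 0.09 for EXOSC6, -0.04 to 0.31 for EXOSC4 and -0.01 to 0.32 for EXOSC5.

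Levels of the barrel subunits, which are present once each in the complex, spanned from 15.9 TPM (EXOSC6) to 75.1 TPM (EXOSC3) in the vehicle libraries. EXOSC6 and EXOSC5 were the least abundant and their libraries overlapped. EXOSC7 followed at 39.8 TPM, then EXOSC9, EXOSC1, EXOSC4 and EXOSC8 between 43.4 and 51.6 TPM, with neighbours among these 4 overlapping, and EXOSC2 at 57.8 TPM. With LLY-283, EXOSC3 remained the highest at 64.5 TPM and EXOSC9 moved to the second place at 55.1 TPM, where the libraries of EXOSC4 (52.98 TPM) and EXOSC2 (52.5 TPM) overlapped it.

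The exosome nucleases were not called at an adjusted p under 0.05, and 2 of the 3 were higher at an unadjusted p under 0.05 in limma, which 13.2% of all genes passed as higher and 25.4% as lower. DIS3, the main catalytic subunit, measured 14.7, 12.03, 14.4 and 13.3 TPM with vehicle and 15.6, 15.6, 16.1 and 14.9 TPM with LLY-283. All 4 LLY-283 values were above all vehicle values, though the nearest libraries (14.9 and 14.7 TPM) were close. The log2 fold change was 0.20 ± 0.07 (SE, limma adjusted p = 0.0558), and DIS3 was called higher under quantile normalization (adjusted p = 0.00959), median-of-ratios scaling (0.0206), removal of the GC and length trend (0.0104) and without vehicle replicate 1 (0.0435). EXOSC10, the nuclear exonuclease, measured 77.9 ± 2.86 TPM with vehicle and 85.3 ± 5.52 TPM with LLY-283 (SD, n = 4), a log2 fold change of 0.13 with a 95% interval from 0.02 to 0.24. DIS3L, the cytoplasmic counterpart of DIS3, measured 26.5 ± 0.62 and 29.2 ± 2.78 TPM, with an interval from 0.00 to 0.28. Both were lowest within the LLY-283 group in replicate 4, without which both were called higher (adjusted p = 0.0101 and 0.0312). With all libraries both were called with the GC and length trend removed (0.013 and 0.0245), and EXOSC10 under median-of-ratios scaling (0.0231).

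**Figure D3:**
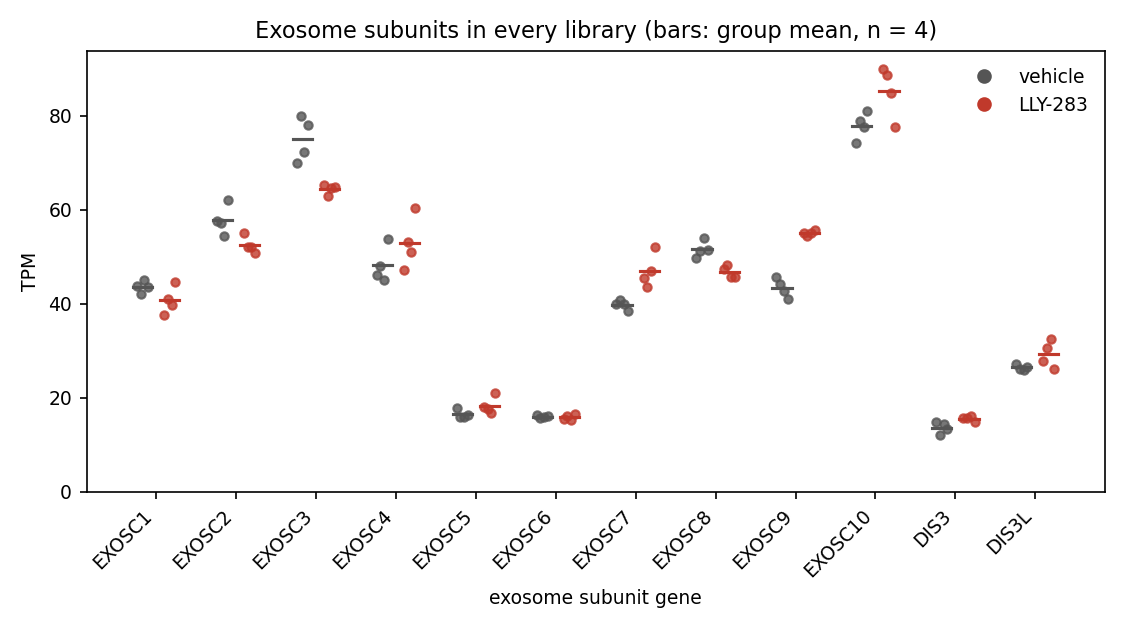
TPM of the 9 barrel subunits and 3 nucleases of the exosome in each of the 4 vehicle (grey) and 4 LLY-283 (red) libraries, with the group mean as a bar. EXOSC7, EXOSC9 and DIS3 were higher and EXOSC3 and EXOSC8 lower without overlap between the groups, and EXOSC5 and EXOSC6 were the least abundant of the barrel.

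Of the nuclear adaptors none was called, and 1 of the 5 was higher and 1 lower at an unadjusted p under 0.05 in limma (13.2% and 25.4% of all genes). ZCCHC8, the scaffold of the nuclear exosome targeting complex, had the largest log2 fold change of the 5. It measured 22.3, 22.6, 25.5 and 23.1 TPM with vehicle and 27.5, 26.2, 27.6 and 23.5 TPM with LLY-283. The groups overlapped through LLY-283 replicate 4, and the log2 fold change of 0.16 ± 0.06 (SE, limma adjusted p = 0.0866) was called without that library (0.22, adjusted p = 0.0183) and, with all libraries, under quantile normalization (0.0236), median-of-ratios scaling (0.0231) and removal of the GC and length trend (0.0119). Its partners, the helicase MTREX (42.4 ± 1.49 and 44.8 ± 2.37 TPM, SD, n = 4) and the RNA-binding protein RBM7 (42.2 ± 3.88 and 45.4 ± 1.203 TPM), had log2 fold changes of 0.08 and 0.11. MTREX was called higher with the GC and length trend removed (0.13, adjusted p = 0.0395), and RBM7 without vehicle replicate 1 (0.17, adjusted p = 0.0266). ZFC3H1, the scaffold of the poly(A) tail exosome targeting connection, measured 29.3, 31.0, 26.8 and 19.2 TPM with LLY-283, and between 25.7 and 27.5 TPM with vehicle. The low replicate 4 set its sign, as the log2 fold change was -0.04 with and 0.11 without that library, and 0.00 to 2 decimals with median-of-ratios scaling. PABPN1, the nuclear poly(A)-binding protein, measured 191.5 ± 4.86 TPM with vehicle and 180.7 ± 3.89 TPM with LLY-283 (SD, n = 4; log2 fold change -0.08, limma adjusted p = 0.0574), a difference that was called under quantile normalization (-0.10, adjusted p = 0.0353) and without vehicle replicate 1 (-0.10, 0.0399) and turned to 0.02 with the GC and length trend removed.

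Among the 5' decay and decapping factors, the decapping scaffold was called higher and the decapping enzyme lower, the second call depending on the settings. EDC4, which holds the decapping complex together, measured 54.3, 60.8, 55.7 and 56.2 TPM in the vehicle and 66.3, 66.4, 65.4 and 63.2 TPM in the LLY-283 libraries. Its groups did not overlap, and the log2 fold change of 0.20 ± 0.04 (SE, limma adjusted p = 0.00556) was called under all 17 alternatives. DCP2, the enzyme that removes the cap, measured 15.1, 15.6, 16.7 and 15.7 TPM with vehicle and 15.1, 14.2, 12.9 and 12.6 TPM with LLY-283. LLY-283 replicate 1 was at the level of the lowest vehicle library and the others were below it. The log2 fold change was -0.21 ± 0.07 (SE, limma adjusted p = 0.045), the largest in size of this group, and it was not called without any 1 vehicle replicate or without LLY-283 replicate 2, 3 or 4 (adjusted p from 0.0627 to 0.116). Nor was it called under quantile normalization (-0.13, adjusted p = 0.133), median-of-ratios scaling (0.0811) or with the GC and length trend removed (0.0527). A filter of 0.1 TPM (limma adjusted p = 0.0631) and a fit with no mean-variance trend (0.0598) lost the DCP2 call too.

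XRN2, the nuclear 5' exonuclease, rose by a small and even amount, from 73.2, 69.3, 72.3 and 70.6 TPM to 77.6, 76.3, 78.2 and 78.8 TPM, without overlap (log2 fold change 0.12 ± 0.03, SE, limma adjusted p = 0.0126, called under all 17 alternatives). XRN1, the cytoplasmic 5' exonuclease and the least abundant of the 38 in the vehicle libraries, measured 8.50 ± 1.01 and 7.46 ± 1.08 TPM (SD, n = 4), with a 95% interval of the log2 fold change from -0.45 to 0.08. DCP1A, the activating partner of DCP2, measured 11.4 ± 0.72 and 11.2 ± 1.14 TPM, and its log2 fold change of -0.03 was above 0 under all 3 other scalings.

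The CCR4-NOT deadenylase held no called gene, and none of its 5 members had an unadjusted p under 0.05 in limma. Over all genes 8.61% were called higher and 17.6% lower, and 13.2% and 25.4% passed the unadjusted threshold. With the GC and length trend removed CNOT2 was called higher (0.13, adjusted p = 0.0449). CNOT1, the scaffold, measured 117.5 ± 4.16 TPM in vehicle and 117.7 ± 4.16 TPM in LLY-283 libraries (SD, n = 4), with a 95% interval of the log2 fold change from -0.08 to 0.08. CNOT2 (51.9 and 54.3 TPM), CNOT3 (65.1 and 64.7 TPM) and the deadenylase CNOT6 (28.6 and 29.7 TPM) had log2 fold changes of 0.06, -0.01 and 0.05, and the sign of CNOT3 turned under all 3 other scalings. CNOT7, the second kind of deadenylase in the complex, had the largest log2 fold change of the 5, though not called, and also varied the most. It measured 71.0, 84.3, 93.6 and 77.2 TPM with vehicle and 87.8, 97.5, 89.1 and 78.8 TPM with LLY-283. Both groups spanned much of the same range, and the log2 fold change was 0.12 ± 0.09 (SE, limma adjusted p = 0.352).

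Of the NMD factors, UPF1 and UPF3B were called higher and UPF2 and UPF3A lower. UPF1, the helicase on which NMD depends, measured 49.7, 46.7, 47.4 and 47.8 TPM with vehicle and 51.5, 51.8, 52.8 and 51.7 TPM with LLY-283, without overlap. The log2 fold change was 0.12 ± 0.03 (SE, limma adjusted p = 0.0205), and with libraries left out the call was lost without vehicle replicate 2 (adjusted p = 0.0503) and without LLY-283 replicate 3 (0.0528). UPF2, which bridges UPF1 and the UPF3 proteins, changed the most in the group: 9.71, 9.69, 10.7 and 9.55 TPM with vehicle and 8.20, 8.94, 8.61 and 8.63 TPM with LLY-283. These did not overlap, and vehicle replicate 3 was the highest. The log2 fold change was -0.20 ± 0.06 (SE, limma adjusted p = 0.0285), and it was not called without vehicle replicate 1, 2 or 3 or without LLY-283 replicate 1 or 3 (adjusted p from 0.052 to 0.0727), nor under quantile normalization (-0.10, adjusted p = 0.245), median-of-ratios scaling (0.0577) or with the GC and length trend removed (0.0639).

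UPF3A and UPF3B are paralogs that take the same place between UPF2 and the exon junction complex, of which UPF3B is known as the stronger activator of NMD. UPF3B measured 48.4, 47.5, 47.8 and 44.4 TPM with vehicle and 50.9, 53.5, 52.5 and 52.3 TPM with LLY-283, whereas UPF3A measured 30.5, 28.7, 30.4 and 30.4 TPM with vehicle and 27.1, 27.9, 27.1 and 26.4 TPM with LLY-283. Neither gene's groups overlapped, and the 2 genes moved in opposite directions. The log2 fold changes were 0.15 ± 0.04 for UPF3B (SE, limma adjusted p = 0.0126) and -0.15 ± 0.04 for UPF3A (adjusted p = 0.017). UPF3B was called under all 17 alternatives, and of the 3 other scalings UPF3A was called under quantile normalization but not under median-of-ratios scaling (-0.10, adjusted p = 0.0598) or with the GC and length trend removed (-0.05, adjusted p = 0.294).

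The kinase SMG1, which phosphorylates UPF1, measured 23.1 ± 1.96 TPM with vehicle and 20.9 ± 1.24 TPM with LLY-283 (SD, n = 4). SMG6, the endonuclease that cuts NMD targets, measured 22.4 ± 1.58 and 20.5 ± 1.13 TPM, and SMG5, which recruits decay enzymes and phosphatase to UPF1, 69.4 ± 0.94 and 73.1 ± 3.47 TPM. None was called, at log2 fold changes of -0.14, -0.13 and 0.07 (limma adjusted p = 0.144, 0.144 and 0.182), and SMG5 was called higher without LLY-283 replicate 4 (0.11, adjusted p = 0.0163), under median-of-ratios scaling (0.12, 0.0403) and with the GC and length trend removed (0.13, 0.0175).

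All 4 core proteins of the exon junction complex had log2 fold changes above 0, under every scaling tried, and 2 were called higher, where 8.61% of all genes were. MAGOH, which with RBM8A locks the complex on RNA, measured 157.1, 161.9, 163.3 and 156.6 TPM with vehicle and 186.8, 185.7, 180.3 and 192.6 TPM with LLY-283. The groups were separated by a gap wider than the spread of either, and the log2 fold change was 0.22 ± 0.03 (SE, limma adjusted p = 0.00076). CASC3, the cytoplasmic partner of the complex, measured 55.3, 54.4, 55.8 and 54.6 TPM with vehicle and 62.1, 62.7, 61.0 and 58.2 TPM with LLY-283, likewise without overlap (0.15 ± 0.03, SE, limma adjusted p = 0.00936). MAGOH and CASC3 were called higher under all 17 alternatives.

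RBM8A was the most abundant of the 38 genes at 310.8 ± 12.7 TPM with vehicle and 333.2 ± 16.6 TPM with LLY-283 (SD, n = 4; limma adjusted p = 0.11, and 0.0498 under quantile normalization). EIF4A3, the helicase that clamps the complex to RNA, measured 127.9 ± 4.80 and 133.6 ± 9.73 TPM (limma adjusted p = 0.42). In both genes LLY-283 replicate 4 was the highest library, at 357.9 and 144.5 TPM.

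MAGOH has a near-identical paralog, MAGOHB, whose protein takes the same place beside RBM8A. Over coding exons 2 to 5, 306 of 350 bases (87.4%) are the same in both genes and the longest identical stretch is 38 bases. The third coding exons, of 111 bases each, are shown because the ratio of these paralogs is compared further on; capitals mark the 17 bases that differ. Both sequences come from the GRCh38 reference with GENCODE release 44, the first at chr1:53233542-53233652 and the second at chr12:10609831-10609941, each read from the minus strand.
MAGOH: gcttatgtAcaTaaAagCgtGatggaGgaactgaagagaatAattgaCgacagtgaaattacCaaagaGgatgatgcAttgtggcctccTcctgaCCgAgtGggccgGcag
MAGOHB: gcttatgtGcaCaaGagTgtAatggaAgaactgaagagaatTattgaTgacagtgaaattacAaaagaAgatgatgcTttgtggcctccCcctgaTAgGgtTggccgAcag

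MAGOHB measured 60.6, 55.7, 54.9 and 60.8 TPM with vehicle and 58.1, 61.7, 60.2 and 62.6 TPM with LLY-283, with overlapping groups and a log2 fold change of 0.07 (limma adjusted p = 0.305). MAGOH was thus the more abundant paralog in every library, at 2.59, 2.90, 2.97 and 2.57 times MAGOHB with vehicle and 3.21, 3.01, 2.99 and 3.07 times with LLY-283. The ratio was higher in all 4 LLY-283 libraries than in any vehicle library, although the nearest libraries were close (log2 ratios of 1.57 and 1.58).

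A ratio within a library does not move when the library is multiplied by 1 factor, though quantile normalization or removal of the GC and length trend can move it, and 5 pairs of paralogs were compared in this way by an exact two-sided permutation test, for which the smallest possible p is 0.0286. UPF3A stood at 0.631, 0.606, 0.637 and 0.685 times UPF3B with vehicle and at 0.533, 0.522, 0.518 and 0.506 times with LLY-283, with no overlap. The log2 ratio fell by 0.30, from -0.65 ± 0.07 to -0.94 ± 0.03 (SD, n = 4; exact p = 0.0286, the smallest possible, adjusted over the 5 pairs 0.0714). For MAGOH to MAGOHB the log2 ratio was 0.16 higher with LLY-283, 1.62 ± 0.05 against 1.46 ± 0.11 (SD, n = 4; exact p = 0.0286, adjusted 0.0714). No adjusted value was under 0.05. With only UPF3A to UPF3B and MAGOH to MAGOHB at the smallest possible p, none could be, however large the shift. The ratios of CNOT6 to CNOT6L (0.08 higher, exact p = 0.143), DIS3 to DIS3L (0.06 higher, exact p = 0.457) and CNOT7 to CNOT8 (0.04 higher, exact p = 0.629) overlapped between the groups, with 4 libraries in each.

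**Figure D4:**
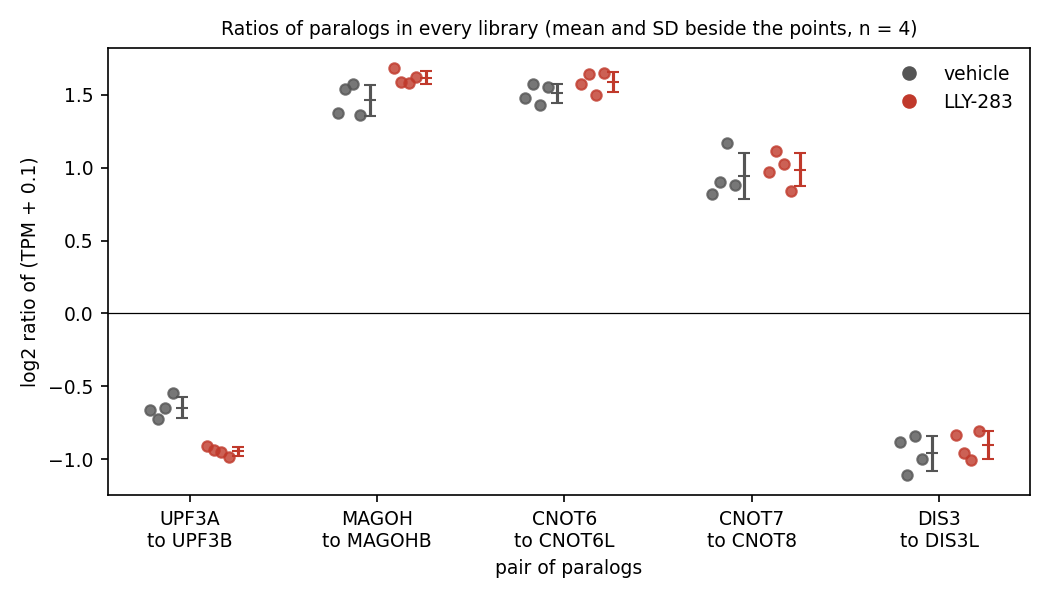
Log2 ratio of (TPM + 0.1) for 5 pairs of paralogs in each vehicle (grey) and LLY-283 (red) library, with mean and SD (n = 4) beside the points. The ratio of UPF3A to UPF3B was lower, and that of MAGOH to MAGOHB higher, in all LLY-283 libraries than in any vehicle library, and the other 3 pairs overlapped.

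Several of these genes share sequence with other genes, between which reads can be divided. The share is given as the percent of the 50-base words of the main transcript that occur in another gene of GENCODE release 44, a later release than the deposited table was made with, and the part of such stretches in the results was not tested. EXOSC9 (chr4:121801318-121817021, plus strand) overlaps CCNA2 on the opposite strand and shares 13.2%. CCNA2, a cyclin, was lower with LLY-283, at 54.3 ± 0.90 TPM against 59.1 ± 0.53 TPM (SD, n = 4; log2 fold change -0.12, limma adjusted p = 0.011), opposite to EXOSC9. EXOSC8 (chr13:36998816-37025881, plus strand) shares 22.7% with SUPT20H on the opposite strand, which measured 37.7 ± 3.14 TPM with vehicle and 33.6 ± 3.07 TPM with LLY-283 (limma adjusted p = 0.135).

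UPF3A (chr13:114281601-114305817, plus strand) shares 42.4% with its pseudogenes, whose group means were at most 0.485 TPM. EDC4 (chr16:67873052-67884499, plus strand) shares 21.5% with an unnamed gene on the same strand, ENSG00000263126, at 1.17 TPM with vehicle and 1.48 TPM with LLY-283. PABPN1 shares 79.4% with the read-through gene BCL2L2-PABPN1, which was called lower (4.74 ± 0.43 to 2.70 ± 0.83 TPM, SD, n = 4; log2 fold change -0.84, limma adjusted p = 0.0177). EXOSC4 shares 89.9% with a gene model of release 44, ENSG00000290230, for which no value was read here, and 22.6% with ENSG00000255224 on the opposite strand, which was called lower (2.49 ± 0.38 to 1.63 ± 0.0058 TPM, SD, n = 4; log2 fold change -0.57, limma adjusted p = 0.0155). SMG1 shares 18.9% with other genes, among them its pseudogenes and ENSG00000291060. Of the pseudogenes, SMG1P4 was called lower (4.41 ± 1.00 to 2.47 ± 0.60 TPM, SD, n = 4, limma adjusted p = 0.0163). SMG1P1, SMG1P7, SMG1P3 and SMG1P5 were more abundant with vehicle (8.38, 6.5, 6.43 and 5.935 TPM) and not called. Their log2 fold changes were -0.19, -0.18, 0.01 and -0.05, and SMG1 itself measured 23.1 TPM with vehicle. MAGOH shares 2.47%, and UPF1, UPF2, UPF3B and CASC3 share none.

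The main transcripts of the 38 genes were longer than those of all genes tested, with a median of 3835 against 2915 bases, and lower in GC content, with a median of 43.7% against 48.1%. Across the 38 genes the rank correlation of the log2 fold change was -0.28 with transcript length and 0.18 with GC content, and across all 14457 genes with both values it was 0.07 and -0.02. Genes are not independent replicates, and these values are a description.

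Partners of these factors were called in both directions, and 2 genes in the lists passed 1.5-fold. Each count is to be set beside the 8.61% of all genes called higher and 17.6% called lower, and no difference from that background was tested. Of 26 genes tested in a list of exosome cofactors and other RNA-processing enzymes, 5 were called higher (19.2%) and 1 lower (3.85%). Those called higher were ZC3H18, HBS1L, TENT2, TUT7 and ERI1, so the share is not one of exosome cofactors alone. The largest change in this list was that of TENT2, a cytoplasmic poly(A) polymerase and not an exosome subunit, which lengthens tails. It measured 27.1, 27.5, 31.6 and 28.7 TPM with vehicle and 45.1, 44.03, 47.2 and 39.6 TPM with LLY-283, without overlap (log2 fold change 0.61 ± 0.07, SE, limma adjusted p = 0.000284). The 1 gene called lower was NCBP3, a cap-binding protein of nuclear mRNA, from 43.2 ± 1.98 to 35.9 ± 2.51 TPM (SD, n = 4; log2 fold change -0.27, limma adjusted p = 0.00667).

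Of 40 decapping and deadenylation partners, 4 were called higher (10%) and 8 lower (20%), near the shares over all genes. PATL1, a scaffold that joins deadenylated mRNA to the decapping machinery, rose from 25.4 ± 1.29 to 33.0 ± 1.29 TPM (SD, n = 4; log2 fold change 0.38, limma adjusted p = 0.00061). BTG2, an antiproliferative protein that recruits CCR4-NOT to mRNA, fell from 24.7 ± 1.18 to 18.1 ± 1.19 TPM (SD, n = 4; log2 fold change -0.45, limma adjusted p = 0.000645).

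Of 25 NMD and exon junction partners, 8 were called higher (32%) and 3 lower (12%). SRRM1, a splicing coactivator that associates with the exon junction complex, measured 111.9, 109.1, 115.7 and 109.2 TPM with vehicle and 158.4, 152.7, 146.1 and 131.3 TPM with LLY-283, without overlap and with LLY-283 replicate 4 the lowest of its group (log2 fold change 0.40 ± 0.05, SE, limma adjusted p = 0.000897). NBAS, an NMD factor at the endoplasmic reticulum, fell from 23.0 ± 1.59 to 18.9 ± 0.87 TPM (SD, n = 4; log2 fold change -0.28, limma adjusted p = 0.00742).

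Genes with transcripts known as targets of NMD were counted at the level of genes. A gene value sums all transcripts of the gene, and the NMD-sensitive ones were not measured apart. Of 41 tested, 13 were called higher and 7 lower; 6 of the list are themselves among the 38 decay factors (UPF1, UPF2, UPF3B, SMG1, SMG5 and SMG6), and of the other 35, 11 were called higher (31.4%) and 6 lower (17.1%), where 8.61% and 17.6% of all genes were. The median log2 fold change of the 35 was 0.06, against -0.05 over all genes. PTBP2, a splicing regulator of neurons, measured 17.4, 15.6, 17.4 and 17.2 TPM with vehicle and 30.0, 32.2, 29.2 and 26.4 TPM with LLY-283. This was the largest rise in any of the lists, with no overlap (log2 fold change 0.80 ± 0.07, SE, limma adjusted p = 7.51e-05). SRSF7, an SR splicing factor that carries a poison exon, rose from 226.3 ± 4.93 to 289.8 ± 7.85 TPM (SD, n = 4; log2 fold change 0.36), and DDIT3, a transcription factor of the stress response, fell from 39.4 ± 0.41 to 27.6 ± 0.52 TPM (SD, n = 4; log2 fold change -0.51, limma adjusted p = 2.33e-05).

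**Figure D5:**
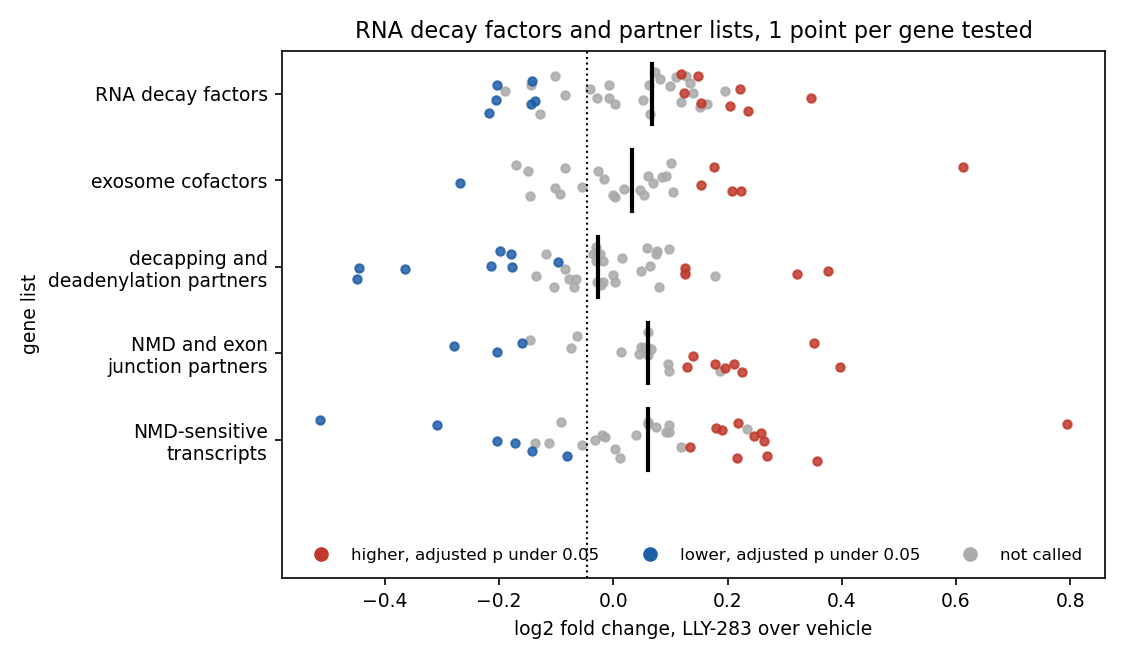
Log2 fold change of each gene tested, LLY-283 over vehicle, for the 38 RNA decay factors and 4 lists of partner or target genes (decay factors left out of the lists); black bars are medians and the dotted line the median of all genes tested at -0.05. TENT2 at 0.61 and PTBP2 at 0.80 lie to the right of all other points.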

How the data were processed

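RNA-seq of poly(A)-captured RNA was analysed in 4 vehicle and 4 LLY-283 libraries of U251 cells. The authors trimmed and mapped the reads to GRCh38 and estimated gene abundance with RSEM; the values they deposited are TPM, relative to transcript length and to the library's total, which was 1000000 or 1000001 in each library. The submitters' processing notes list Cutadapt 1.18, STAR 2.7.0f and RSEM 1.3.1, and the study's methods name later versions of STAR and RSEM. Whether the counting used strand is not stated, so overlapping and antisense genes are uncertain. TPM keeps no depth and can shift with the composition of a library.

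Genes averaging 1 TPM or more were compared on log2(TPM + 0.1) in R 4.3.3 with limma 3.58.1 (lmFit, then eBayes with its trend option), with Benjamini-Hochberg adjustment and no replicate block. Fold changes are on that scale, which understates the change of low genes. Exact permutation tests went through every division of the libraries in Python 3.11.15. Positions, transcript lengths, GC content and shared 50-base words came from GENCODE release 44 on GRCh38. The script was tested on simulated data.

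The RNA decay factors and the gene lists were chosen with earlier results of these data known. By rule, full values were given for decay factors called beyond a fold that only EXOSC9 passed. They were also given for the gene of each role group with the log2 fold change largest in size, called or not. In each list they were given for genes called above 1.5-fold and the called gene with the smallest p in each direction. The other called decay factors were added after their values were seen, as were genes that share sequence. In the exosome cofactor list SKI7 was not found as a symbol and was left out. It is made from HBS1L, which the list also held and which was counted. SKIC2, SKIC3 and SKIC8 were matched by gene identifier, under the symbols SKIV2L, TTC37 and WDR61. Alternatives were pseudocounts of 0.5 and 1, filters of 0.1 and 5 TPM, quantile and median-of-ratios scaling, no mean-variance trend, a replicate block, values freed per library of their dependence on transcript length and GC content (splines with 4 degrees of freedom), a 1.5-fold threshold and each library left out in turn. Protein sequences were not analysed here.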

Additional observations from a re-analysis of the deposited data

Results flagged for a closer look

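In each of 76 groups, the 4 vehicle or 4 LLY-283 libraries of each of the 38 RNA decay factors, the highest and lowest library were checked for a gap to the other 3 beyond Dixon's 95% limit, and 3 groups passed it, where chance gives about 1 in 20. UPF2 in vehicle replicate 3 measured 10.73 TPM, and the other vehicle libraries 9.55 to 9.71 TPM. UPF3A in vehicle replicate 2 measured 28.72 TPM, below the others at 30.41 to 30.52 TPM. RBM8A in LLY-283 replicate 4 measured 357.88 TPM, above the others at 323.28 to 327.55 TPM.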

How the results depend on the processing

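Over 17 alternative settings of the fit, the 1.5-fold threshold apart, 7 of the 8 genes called higher (EXOSC7, EXOSC9, XRN2, EDC4, UPF3B, MAGOH and CASC3) were called in all, and none of the 6 called lower was; 13 uncalled genes gained a call in at least 1 setting. The 8 higher and 6 lower calls became 12 and 1 with median-of-ratios scaling, 17 and 0 with the GC and length trend removed (22 and 3 at an unadjusted p under 0.05, which 25.5% and 16% of all genes passed), and 0 and 0 above 1.5-fold. Leaving out each library gave 7 to 12 higher calls and 3 to 5 lower calls, fewest lower without vehicle replicate 2 or LLY-283 replicate 3. In these fits from 6.13% to 10.4% of all genes were called higher and from 13% to 18.4% lower. The median log2 fold change of 0.069 became 0.114 with median-of-ratios scaling and 0.132 with the trend removed, and lay between 0.057 and 0.088 with each library left out. No called gene changed sign. Uncalled genes did: with the trend removed EXOSC1 reached 0.021, EXOSC6 0.048, ZFC3H1 0.003, PABPN1 0.020, DCP1A 0.021 and CNOT3 0.063, with median-of-ratios scaling EXOSC6 0.037, ZFC3H1 0.005, DCP1A 0.017 and CNOT3 0.037, and with quantile normalization EXOSC6 0.062, DCP1A 0.074 and CNOT3 0.002. With each library left out, EXOSC6 ranged from -0.027 to 0.013, ZFC3H1 from -0.122 to 0.108, DCP1A from -0.085 to 0.014, CNOT1 from -0.014 to 0.025 and CNOT3 from -0.044 to 0.026. The cause of these shifts was not tested. The filter of 0.1 TPM and the fit with no mean-variance trend each gave 8 higher and 4 lower calls, losing EXOSC2 and DCP2. Over all genes the shares were 5.25% and 11.7% with that filter, and 7.16% and 16.5% with no mean-variance trend. Correlations of deviations lay between -0.0851 and 0.032 for same-numbered libraries and between -0.213 and 0.201 for unlike-numbered ones. These values cannot show whether same-numbered cultures were handled together, which the labels do not state. With a replicate block 8 genes were called higher and 2 lower (7.56% and 15.2% of all genes), of which 7 and 2 were among the calls without it. The replicate block lost UPF1 (adjusted p = 0.051), UPF3A (0.0511), UPF2 (0.0568), EXOSC2 (0.0759) and DCP2 (0.0905) and added EXOSC4 (0.0476), and over 4 pairs no exact p of a ratio can be under 0.125. The depth is unknown, so what it limits could not be judged.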
